A study of Mus musculus with 6 samples.

Results

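The genes described are 7 CXC chemokine ligands, Cxcl1, Cxcl2, Cxcl3, Cxcl9, Cxcl10, Cxcl12 and Cxcl16, taken by symbol from a table of 29872 mouse genes. All 7 symbols had a row. The libraries were bulk RNA sequencing of ex vivo expanded, untreated bone marrow cells of C57BL/6 mice, sorted as Lin-Sca1+cKit+CD150+, the gate of a stem cell population. A total of 3 libraries were labelled CML (chronic myeloid leukaemia, described as leukaemic stem cells) and 3 were labelled WT (wild type, described as haematopoietic stem cells). The oncogene, promoter or transplant behind the CML label, the age of the mice, the culture medium, and whether libraries of a group had separate animals or cultures behind them, were not found in the labels. The p-values therefore rest on a spread between libraries that may be technical only.

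CXC chemokines are small secreted proteins that guide cells through G protein-coupled receptors. Cxcl1, Cxcl2 and Cxcl3 carry the ELR tripeptide ahead of their paired cysteines, draw neutrophils through Cxcr2 and are induced by NF-kB. Cxcl9, Cxcl10 and Cxcl11 lack it, are induced by interferon and draw T and NK cells through Cxcr3. Cxcl12 is made mainly by marrow stromal and endothelial cells and retains stem cells in their niche through Cxcr4, while Cxcl16 is made as a transmembrane protein, often by myeloid cells, and signals through Cxcr6. Leukaemic cells of CML are known to lower the Cxcl12 of their marrow niche.

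The upstream sequence of Cxcl10 is shown because Cxcl10 was the only member whose difference between the groups passed the test. The NF-kB-induced trio is shown beside it because those genes share a motif with Cxcl10 and were scarce in every library. The sequences were taken from RefSeq (GRCm38.p6, transcribed strand, 5′ to 3′), end at the base before the RefSeq start of transcription, and have motif matches in capitals. Gene coordinates given further on are from GENCODE. By those, the last bases shown for Cxcl1 and Cxcl2 lie inside the gene. The stretch shown for Cxcl10 lies at chr5:92348890-92349109 on the minus strand. Those shown for Cxcl1, Cxcl2 and Cxcl3 lie on the plus strand, at chr5:90891135-90891244, chr5:90903789-90903898 and chr5:90785991-90786100.
Cxcl10: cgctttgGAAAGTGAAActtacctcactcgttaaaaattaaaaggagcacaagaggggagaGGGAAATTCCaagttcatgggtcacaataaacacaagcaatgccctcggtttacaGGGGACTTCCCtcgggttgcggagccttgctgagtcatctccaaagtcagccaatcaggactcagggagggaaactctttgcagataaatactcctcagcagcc
Cxcl1: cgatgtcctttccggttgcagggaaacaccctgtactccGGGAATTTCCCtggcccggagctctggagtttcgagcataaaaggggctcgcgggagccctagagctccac
Cxcl2: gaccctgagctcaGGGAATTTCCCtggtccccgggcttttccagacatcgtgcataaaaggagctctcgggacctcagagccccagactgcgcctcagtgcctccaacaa
Cxcl3: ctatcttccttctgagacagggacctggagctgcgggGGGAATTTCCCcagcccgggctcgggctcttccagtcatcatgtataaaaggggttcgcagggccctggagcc

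In Cxcl10 the capitals mark an interferon-stimulated response element (ISRE, searched as GAAA, any 2 bases and GAAA again) at position -213 from the start and matches to the NF-kB consensus at -159, -104 and -103, the last 2 of which overlap. In Cxcl1, Cxcl2 and Cxcl3 they mark the same stretch, GGGAATTTCCC, from -71, -97 and -73, which holds overlapping matches to the NF-kB consensus, 1 on each strand. Both strands of 300-base windows (250 bases before to 50 after the start) were searched, and another motif, the gamma-activated site (GAS, TTCNNNGAA), had no match in a member. Of 32851 windows in the table, 3.44% held the ISRE, 8.46% the NF-kB consensus and 8.30% the GAS. Windows were found for 6 of the 7 members. Cxcl9 and Cxcl12 had no match to any of the 3 motifs, which says only that these letters were not in those windows. A match describes the letters and is not evidence of binding.

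Library totals ran from 13323469 to 17926847 counts after rounding, and 1 count was worth 0.0597 to 0.0730 CPM (counts scaled to library size with the TMM method of edgeR). A gene entered the test when at least 3 libraries reached a level set by 10 counts, 0.638 CPM before TMM scaling, which left 16221 genes. Only Cxcl10 and Cxcl2 of the 7 members passed that filter. Cxcl10 reached the level in all 6 libraries and Cxcl2 in 5. Cxcl16 reached it in 2, Cxcl3 and Cxcl12 in 1 each, and Cxcl1 and Cxcl9 in none. By the edgeR quasi-likelihood test at an adjusted p under 0.05, 17.4% of all tested genes changed, 10.2% higher and 7.20% lower in CML. Of the 2 tested members 1 was lower, 0 were higher and 1 was not called, and the other 5 did not pass the filter. DESeq2 and limma-voom, run on the same filtered genes, also called 0 higher, and at an unadjusted p under 0.05 the edgeR count was 0 as well. Both tested members had negative log2 fold changes in these fits, so the count could only be 0. It says nothing about the members that the filter left out.

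Cxcl10 (ENSMUSG00000034855.13, chromosome 5, 92346638 to 92348889, GRCm38, minus strand) was lower in CML. In bulk samples such as these, fewer cells of a type and less RNA per cell cannot be told apart. The CML libraries held 3.77, 2.7 and 4.69 CPM in replicates 1, 2 and 3, from 60, 37 and 75 counts. The WT libraries held 21.3, 28.5 and 26.2 CPM, from 356, 451 and 421 counts. The lowest WT library lay far above the highest CML library, so the groups did not overlap. Libraries of the groups did not overlap for 35.0% of all tested genes, 18.5% with CML higher and 16.5% with CML lower; both tested members, Cxcl10 and Cxcl2, were among the latter. The means were 3.72 ± 0.998 CPM in CML against 25.3 ± 3.69 CPM in WT (SD, n = 3), 6.75-fold lower in CML. The log2 fold change was -2.76 (SE 0.21, 95% interval -3.21 to -2.30, edgeR adjusted p = 2.29e-06). Over the 13 alternative fits it ran from -2.96 to -2.58, and each of them called it lower.

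**Figure D1:**
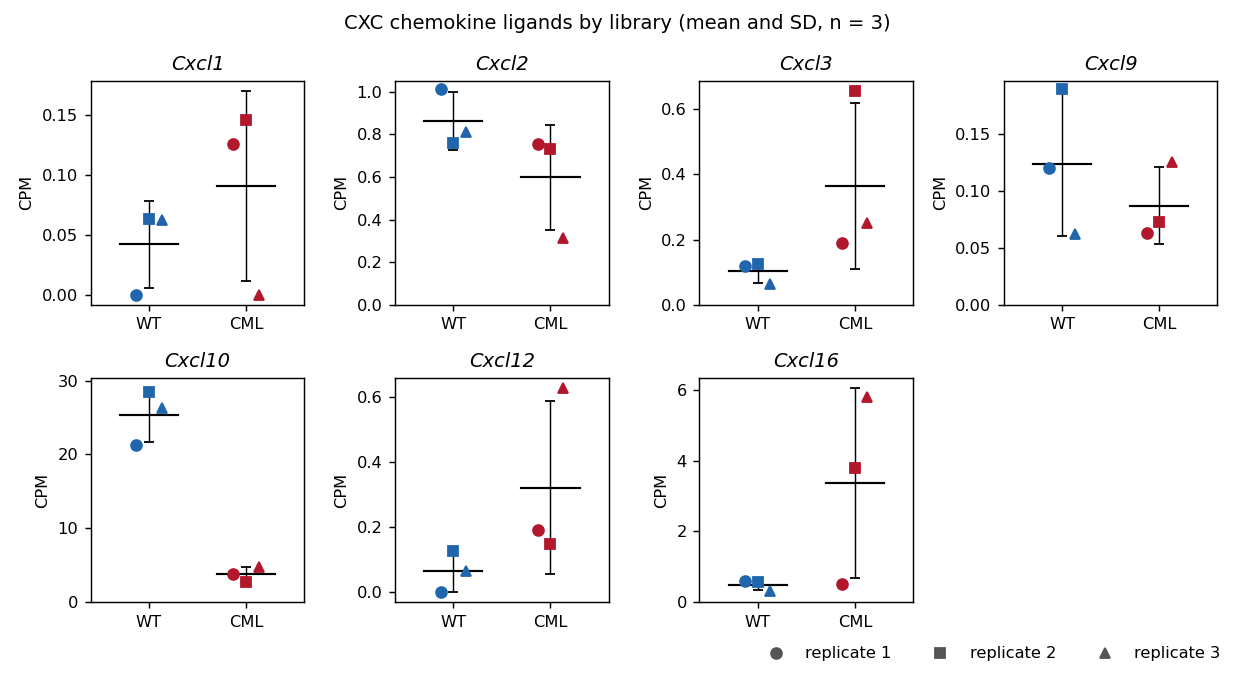
CPM of the 7 CXC ligands in each library (points, shaped by replicate number), with the group mean (long bar) and SD (n = 3), each panel on its own linear axis. Cxcl10 was at 21.3 to 28.5 CPM in WT and 2.7 to 4.69 CPM in CML, and Cxcl16 was high in CML replicates 2 and 3 only.

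Cxcl10 overlaps a gene on the opposite strand, Art3 of the ADP-ribosyltransferase family, as does Cxcl11. Art3 had 14 counts over the CML and 44 over the WT libraries, against 172 and 1228 for Cxcl10. No source gives the strand setting of the counting, and reads of overlapping genes cannot be told apart without it. Cxcl9, the other interferon-induced member (chromosome 5, 92321347 to 92328079), was close to silent. It had 1, 1 and 2 counts in CML and 2, 3 and 1 counts in WT. The total of 4 and 6 counts is at or under a floor of 3 counts a library in both groups, and no fold is given.

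Cxcl11 (chromosome 5, 92359544 to 92365485), the remaining ligand of Cxcr3, is not among the 7 members and lies 10.7 kb from Cxcl10. In C57BL/6 mice it carries a frameshift, and the annotation calls it a polymorphic pseudogene. It stood at 0.879, 0.438 and 0.188 CPM in CML and at 1.25, 1.77 and 1.74 CPM in WT, without overlap. Its log2 fold change was -1.64 (SE 0.47, edgeR adjusted p = 0.0287). In 4 of the 6 fits that left out 1 library it missed the threshold. The library left out was CML replicate 2 (adjusted p = 0.0804), CML replicate 3 (0.114), then WT replicate 2 (0.105) and WT replicate 3 (0.0670).

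The profile of Cxcl10 over the 6 libraries, as log2 CPM centred on its mean, was nearest to those of Slc6a15 and Clec4e among 9927 genes with at least 5 CPM on average. The root mean square differences were 0.283 and 0.285 log2 units. Slc6a15 encodes an amino acid transporter and Clec4e the receptor Mincle, which senses damage and mycobacterial lipids on myeloid cells. Slc6a15 averaged 6.73 CPM in CML against 37.4 CPM in WT, and Clec4e 99.5 and 547 CPM, with log2 fold changes of -2.46 each. This measure takes in the difference between the groups along with the spread within them.

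Other genes that interferon induces were examined from a list of 16. Of the 15 tested, 6 were lower and 1 was higher in CML, beside 7.20% lower and 10.2% higher over all tested genes, and the list median was -0.39 against -0.00425 for all tested genes. Rsad2, the antiviral enzyme viperin, was at 13.9, 13.2 and 13.7 CPM in CML against 39.7, 60.7 and 40.9 CPM in WT (a difference in log2 of -1.79, SE 0.17, edgeR adjusted p = 1.62e-05). Its groups stood well apart. Cmpk2, a mitochondrial nucleotide kinase gene next to Rsad2, fell by 0.88 and Ifi44 by 1.17 on the log2 scale. The remaining 3 called lower, named after their values were seen, were Ifit3 (-1.62), Ifit1 (-0.89) and Usp18 (-0.59), the last a protease that removes ISG15 from proteins. Usp18 missed the threshold in 3 fits, those without WT replicate 2 (adjusted p = 0.101), WT replicate 3 (0.0507) and CML replicate 2 (0.0663).

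At an unadjusted p under 0.05, 3 genes of this list were higher and 8 lower by edgeR. The higher genes included Gbp3 (0.79) and Igtp (0.43), which missed the threshold (edgeR adjusted p = 0.0808 and 0.0597). The list gene called higher was Gbp2, a guanylate-binding protein gene of the interferon gamma response, also named after its value was seen. It stood at 24.0, 51.1 and 29.8 CPM in CML against 14.2, 14.0 and 14.8 CPM in WT (a difference in log2 of 1.29, SE 0.25, edgeR adjusted p = 0.00789). It missed the threshold without WT replicate 1 (adjusted p = 0.0799). Cxcl10 and Gbp2, both textbook interferon gamma targets, had opposite signs in the same libraries. Cxcl10 had a larger fall than each of the 15 tested list genes, as a description of the fitted values.

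No gene that carries the interferon signal was called lower. Of the 14 that were tested of 16 listed, 5 were higher in CML and 0 lower by edgeR, beside 10.2% higher and 7.20% lower over all tested genes. The count of lower genes was also 0 by DESeq2, by limma-voom and at an unadjusted p under 0.05. The list median was 0.33. Ifngr2, the second chain of the interferon gamma receptor, was at 90.6, 112 and 97.6 CPM in CML against 25.9, 24.5 and 32.3 CPM in WT, for a log2 fold change of 1.86 (SE 0.14, edgeR adjusted p = 2.09e-06). Irf1, a transcription factor induced by interferon gamma, rose by 0.66 and the kinase gene Jak2 by 0.68. Tyk2 (0.52) and Stat2 (0.61), named after their values were seen, completed the 5. Stat2 was the least firm: its adjusted p of 0.0460 became 0.0648 with limma-voom and 0.0521 with a replicate block, and 0.0648 to 0.215 in 5 of the 6 fits without 1 library.

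**Figure D2:**
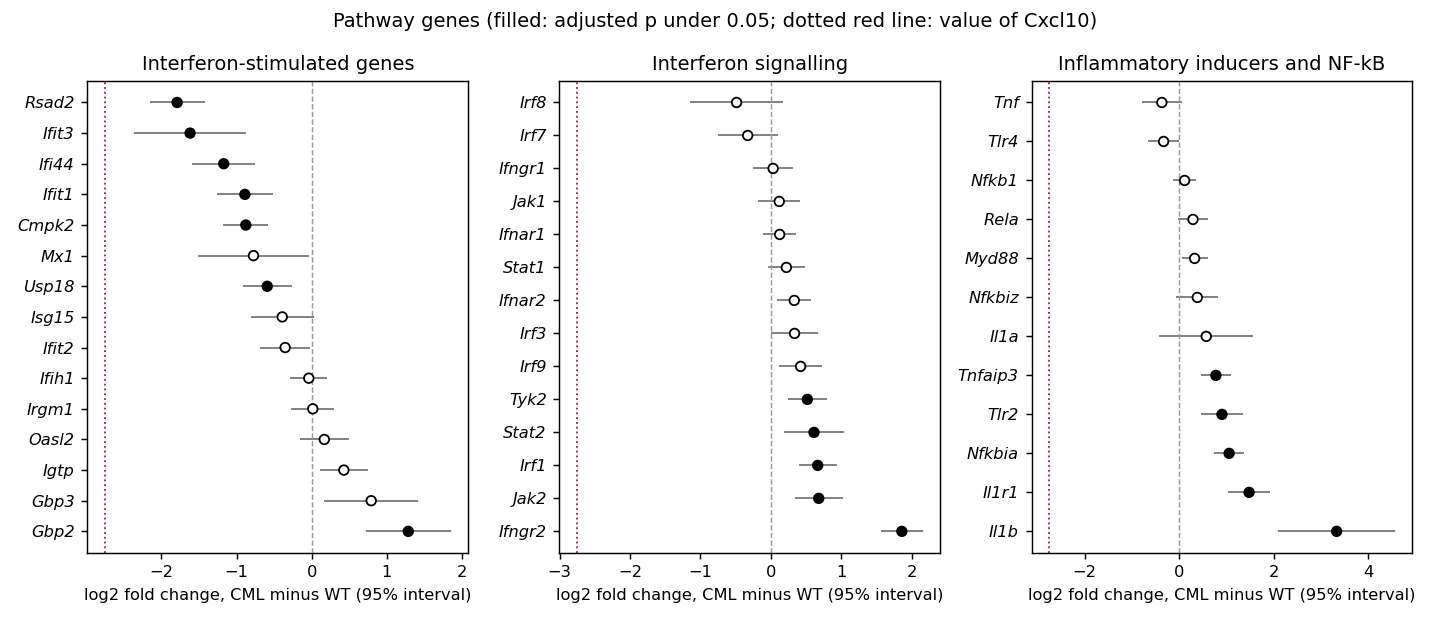
Log2 fold change (CML minus WT, edgeR) with its 95% interval for each tested gene of 3 lists; filled points have an adjusted p under 0.05, and the dotted red line marks Cxcl10 at -2.76. Interferon-stimulated genes had 6 of 15 lower and 1 higher, interferon signalling genes 5 of 14 higher, and inflammatory and NF-kB genes 5 of 12 higher.

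The count of interferon signalling genes higher in CML was 3 without CML replicate 2, 3 without WT replicate 1 and 2 without WT replicate 2. Jak2 missed the threshold without WT replicate 2 (adjusted p = 0.0534). Tyk2 missed it in the fits that lacked WT replicate 1 (0.0521), WT replicate 2 (0.0876) and CML replicate 2 (0.0873).

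The neutrophil-attracting trio was scarce. Cxcl2 (ENSMUSG00000058427.10, chromosome 5, 90903871 to 90905938) had 11.8, 10 and 5 counts in CML and 17, 12 and 13 counts in WT. In CPM these were 0.753, 0.730 and 0.313 in CML and 1.02, 0.758 and 0.810 in WT. The groups stood next to each other, since the highest CML library and the lowest WT library differed by less than 1 count. The log2 fold change of -0.53 did not pass (SE 0.43, 95% interval -1.47 to 0.41, edgeR adjusted p = 0.442). The interval spans a fall and a rise, and no difference was detectable at this depth. The centred profile of Cxcl2 was nearest to those of Ndufa12, a respiratory complex I gene, and of the histone gene Hist1h2an, whose near-identical copies make its counts uncertain. The root mean square differences were 0.0658 and 0.107 log2 units over 9928 genes.

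Cxcl3 (chromosome 5, 90786103 to 90789600) had 3.24, 9 and 4 counts in CML and 2, 2 and 1 counts in WT. Over the groups that is 16 against 5 rounded counts, a scaled ratio of 3.41 with an exact 95% binomial interval from 1.19 to 11.9, which covers counting error only. Of the CML counts 9 came from replicate 2. With no low-count filter the log2 fold change of Cxcl3 was 1.70 (SE 0.92, 95% interval -0.15 to 3.55, edgeR adjusted p = 0.273), which did not pass. The fraction in CML replicate 1 was shared with Cxcl2: its 11.8 counts of Cxcl2 and 3.24 of Cxcl3 summed to 15, a whole number. How shared reads were divided was not tested, and both values are uncertain to that extent. Cxcl1 (chromosome 5, 90891241 to 90893115) had 2, 2 and 0 counts in CML and 0, 1 and 1 counts in WT, at or under the floor in both groups.

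Inflammatory genes upstream of this trio were examined next. Of 12 genes listed, all of which were tested, 5 were higher in CML and 0 lower by edgeR, as also by DESeq2 and limma-voom (1 was lower at an unadjusted p under 0.05). Over all tested genes the shares were 10.2% higher and 7.20% lower. The list median was 0.48. Nfkbia, the inhibitor that NF-kB itself induces, was at 87.4, 92.9 and 91.2 CPM in CML against 38.5, 37.2 and 54.7 CPM in WT (a difference in log2 of 1.06, SE 0.15, edgeR adjusted p = 3.63e-04). Il1r1, the receptor of interleukin 1, rose by 1.48 and Tnfaip3, the feedback inhibitor A20, by 0.78. Il1b and Tlr2 were named after their values were seen. Il1b, the interleukin 1 beta gene, stood at 3.70, 16.2 and 9.01 CPM in CML against 0.956, 0.947 and 0.934 CPM in WT, for a log2 fold change of 3.33 (SE 0.54, edgeR adjusted p = 0.00434), which missed the threshold without WT replicate 1 (adjusted p = 0.0747). Tlr2 rose by 0.91 and missed it without CML replicate 2 (0.0530) or WT replicate 2 (0.0571).

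Cxcl16 (ENSMUSG00000018920.11, chromosome 11, 70453983 to 70459984, minus strand) split the CML libraries. It had 8, 52.0 and 92.7 counts in CML replicates 1, 2 and 3 and 10, 9 and 5 counts in WT. In CPM these were 0.502, 3.79 and 5.82 in CML and 0.597, 0.568 and 0.311 in WT. CML replicate 1 lay within the WT range, and replicates 2 and 3 lay above each WT library. The group means were 3.37 ± 2.68 CPM and 0.492 ± 0.157 CPM (SD, n = 3). Summed over libraries the scaled ratio was 6.80, with an exact 95% binomial interval from 4.40 to 10.9 that leaves out the spread between libraries.

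Cxcl16 was not tested with all 6 libraries because too few of them reached the filter level. With no low-count filter its log2 fold change was 2.71 (SE 0.96, edgeR adjusted p = 0.186), which did not pass. Without CML replicate 1 it passed the filter and the threshold, at 3.27 (SE 0.38, adjusted p = 4.52e-05). Without WT replicate 1, 2 or 3 it was tested and not called (adjusted p = 0.241, 0.206 and 0.156). The call thus depended on leaving out 1 CML library. Zmynd15, which overlaps Cxcl16 on the opposite strand, had 16 counts over the CML and 2 over the WT libraries.

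Markers of mast cells, macrophages and dendritic cells differed between the groups and among the CML libraries. Of the 4 neutrophil genes and 1 lymphoid gene tested, 0 were called, beside 17.4% of all tested genes. The summed CPM of 8 mast cell genes was 1960, 6870 and 4350 in CML replicates 1, 2 and 3 and 110 to 248 in WT. That of 8 macrophage genes was 86.6, 148 and 111 in CML and 7.89 to 11.3 in WT. Of these genes 4 of the 4 tested, among them Adgre1 (F4/80), were higher, beside 10.2% higher over all tested genes. The complement genes C1qa, C1qb and C1qc, defining for many tissue macrophages, had 1, 6 and 5 counts over the CML libraries, and Marco had 0. The summed CPM of 8 dendritic cell genes was 80.9, 160 and 169 in CML and 59.1 to 73.9 in WT. Of the 4 tested, 2 were higher and 0 lower, again beside 10.2% higher over all tested genes. Those called were Zbtb46 (log2 fold change 2.73) and Cst3 (0.48). Cst3, which averaged 84.8 CPM in CML and 60.6 CPM in WT, was the largest part of that sum. Itgax and Ccr7 were tested and not called. Ccr7 varied most among the CML libraries in absolute level, at 3.14, 35.5 and 66.0 CPM in replicates 1, 2 and 3. In WT it was at 0.358, 0.0631 and 1.56 CPM (edgeR adjusted p = 0.0908). Xcr1, Clec9a and Cd209a had 12, 5 and 7 counts over the CML libraries. Siglech went the other way, with 9 counts in CML and 37 in WT. CML replicate 1 was the lowest CML library for all 3 lists and for Cxcl16, and also for the gate, neutrophil and lymphoid lists. Its mast cell and macrophage sums still lay above each WT library, while its Cxcl16 lay within the WT range. Those 2 sums were highest in CML replicate 2, and Cxcl16 in replicate 3. The dendritic cell sum was also highest in replicate 3, and its 80.9 in replicate 1 lay above the WT high of 73.9. No marker in these lists was at 0 in all 6 libraries. The part of these cell types in the Cxcl16 values was not tested.

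**Figure D3:**
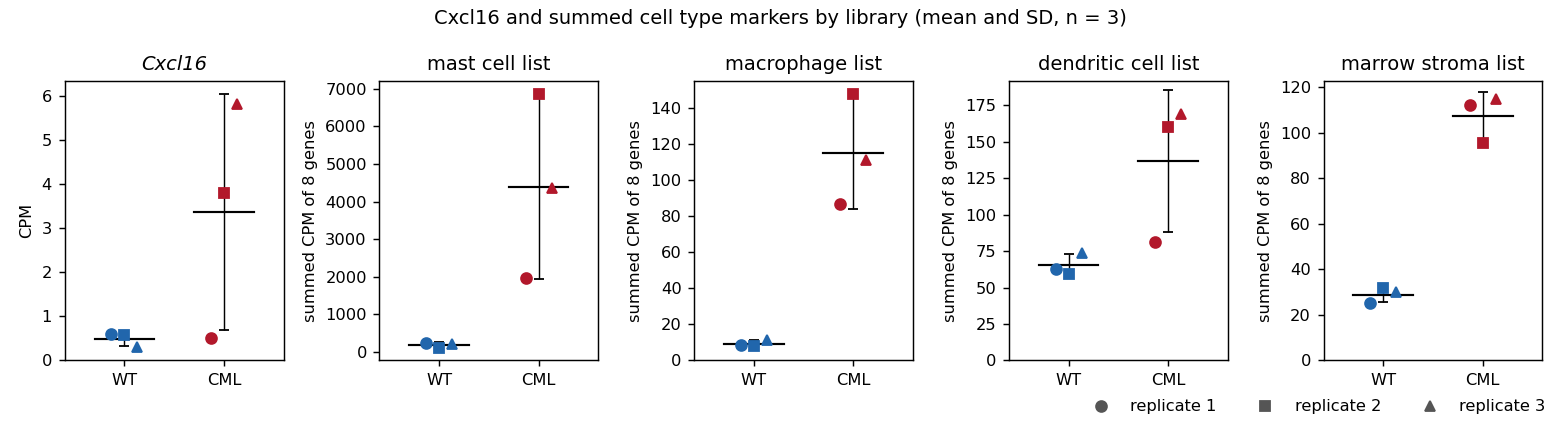
Cxcl16 (CPM) and the summed CPM of 8 marker genes each for mast cells, macrophages, dendritic cells and marrow stroma, by library, with the mean and SD (n = 3). CML replicate 1 (circle) held 0.502 CPM of Cxcl16, within the WT range of 0.311 to 0.597, and was the lowest CML library for the first 3 lists.

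Cxcl10 did not follow that order. Its 3.77 CPM in CML replicate 1 lay between the 2.7 of replicate 2 and the 4.69 of replicate 3. Its level in each CML library was below that in each WT library, including CML replicate 1. For the gate itself, Kit, the stem cell factor receptor, was at 309 ± 100 CPM in CML against 292 ± 9.05 CPM in WT. Ly6a, which encodes Sca1, was at 106 ± 57.5 and 52.2 ± 12.1 CPM. Slamf1, which encodes CD150, was at 14.2 ± 4.35 and 24.7 ± 6.61 CPM (SD, n = 3), so all 3 gate genes were present in both groups. Of the gate genes Slamf1 passed, at a log2 fold change of -0.80 (edgeR adjusted p = 0.0470), and it missed the threshold when scaled by library totals (adjusted p = 0.0563), with genes under a mean of 50 counts removed (0.0520) and in 4 of the 6 fits without 1 library. Those were CML replicates 1 and 3 (0.0946 and 0.152) and WT replicates 1 and 2 (0.134 and 0.158).

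Cxcl12 (ENSMUSG00000061353.11, chromosome 6, 117168535 to 117181367) was near the limit of detection in these sorted cultures. It had 3, 2 and 10 counts in CML and 0, 2 and 1 counts in WT. The 15 and 3 counts give a scaled ratio of 5.33 with an exact 95% binomial interval from 1.51 to 28.7 for counting error only. Of the CML counts 10 came from replicate 3. With no low-count filter its log2 fold change was 2.21 (SE 1.06, edgeR adjusted p = 0.200), which did not pass.

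Stromal markers give the background for Cxcl12. Lepr, the receptor that marks the main Cxcl12-producing stromal cells, had 14 counts over the CML and 4 over the WT libraries. The collagen genes Col1a1, Col1a2 and Col3a1 had 4, 23 and 9 counts in CML and 3, 8 and 14 in WT. Of the 8 stromal genes Pdgfrb alone had enough counts to be tested. It was at 106 ± 9.97 CPM in CML against 28.2 ± 3.27 CPM in WT, for a log2 fold change of 1.91 (SE 0.13, edgeR adjusted p = 9.03e-07). It made up nearly all of the summed level of the list, 95.3 to 115 CPM in CML against 25.2 to 31.6 CPM in WT. Of 8 endothelial genes, 3 were tested and 1, Kdr, was lower (log2 fold change -1.77), beside 7.20% lower over all tested genes. Emcn (-1.38) and Robo4 (-0.07) were tested and not called. Cdh5, Flt4, Stab2, Plvap and Sele were too scarce to test. They had 6, 12, 2, 12 and 4 counts over the CML libraries and 1, 6, 2, 13 and 0 over the WT libraries. Summed levels of the endothelial list were 3.51 to 5.33 CPM in CML against 8.21 to 12.9 CPM in WT. The part of stromal or endothelial cells in the Cxcl12 counts was not tested.

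Of 8 receptors of these ligands 5 were tested, and 0 passed by edgeR, beside 17.4% of all tested genes. At an unadjusted p under 0.05, 2 were higher and 0 lower. DESeq2 called 1 higher, edgeR with no low-count filter 1 and limma-voom 0. Cxcr4, the receptor of Cxcl12, was at 109, 98.9 and 108 CPM in CML against 87.6, 90.7 and 114 CPM in WT. These ranges overlapped, and the log2 fold change was 0.11 (SE 0.13, 95% interval -0.16 to 0.38, edgeR adjusted p = 0.597).

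Cxcr3, the receptor of Cxcl9 and Cxcl10, was at 1.66 ± 0.801 CPM in CML against 0.868 ± 0.245 CPM in WT (a difference in log2 of 0.92, 95% interval 0.01 to 1.84, edgeR adjusted p = 0.155). Cxcr2, which binds the neutrophil-attracting ligands, was at 6.58 ± 3.63 and 5.13 ± 1.5 CPM (SD, n = 3; log2 fold change 0.35). Cxcr6, the receptor of Cxcl16, was at 1.39 ± 0.227 and 1.78 ± 0.832 CPM (log2 fold change -0.36). Cxcr2 turned to -0.11 without CML replicate 2, and Cxcr6 to 0.07 without WT replicate 1.

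Among receptors that take up ligand without signalling through G proteins, Ackr1 was uneven as Cxcl16 was. It stood at 3.20, 9.70 and 15.2 CPM in CML against 3.76, 3.60 and 4.11 CPM in WT, with CML replicate 1 below the WT libraries. Its log2 fold change of 1.29 did not pass by edgeR (SE 0.50, adjusted p = 0.13), while DESeq2 called it (adjusted p = 0.00740), as did edgeR without CML replicate 1 (1.70, adjusted p = 1.93e-04). Ackr3, which takes up Cxcl12 and Cxcl11, had 9, 7 and 11 counts in CML and 0, 0 and 3 counts in WT. These did not overlap, and 27 against 3 counts give a scaled ratio of 9.60 with an exact 95% binomial interval from 2.95 to 49.4. It was too scarce to test with the filter.

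**Figure D4:**
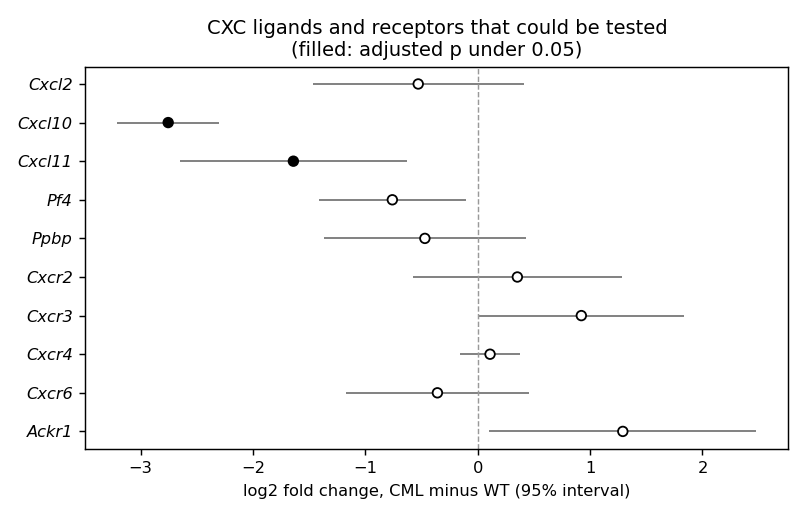
Log2 fold change (CML minus WT, edgeR) with its 95% interval for the 5 CXC ligands and 5 receptors with enough counts to be tested; filled points have an adjusted p under 0.05. Cxcl10 (-2.76) and Cxcl11 (-1.64) were lower in CML, and the intervals of Cxcl2, Ppbp, Cxcr2, Cxcr4 and Cxcr6 spanned 0.

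The remaining CXC ligands include the platelet chemokines Pf4 and Ppbp. Of 8 listed genes 7 had a row and 3 were tested, of which 1, Cxcl11, was lower, beside 7.20% lower over all tested genes. Pf4, platelet factor 4, was at 25.4, 53.0 and 58.1 CPM in CML against 72.9, 77.9 and 80.2 CPM in WT. The groups did not overlap, and CML replicate 1 was lowest. Per kilobase of exon it averaged 63.1 CPM in CML against 107 in WT, above each of the 7 members. The log2 fold change of -0.76 (SE 0.28) did not pass (edgeR adjusted p = 0.108), but it did with DESeq2 (0.00515), with limma-voom (0.0386), with a replicate block (0.0322) and without CML replicate 1 (-0.47, adjusted p = 0.0196). Ppbp was at 3.80 ± 2.10 CPM in CML against 5.26 ± 0.962 CPM in WT (SD, n = 3), and its log2 fold change of -0.47 missed the threshold (edgeR adjusted p = 0.468). Cxcl5, Cxcl13, Cxcl14 and Cxcl17 had at most 10 counts over a group.

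Among markers of megakaryocytes, the lineage of Pf4, the integrin gene Itga2b was lower (log2 fold change -0.57, edgeR adjusted p = 0.0360). The platelet glycoprotein gene Gp9 (0.18) and Vwf, the von Willebrand factor gene (0.22), did not pass. Only part of this marker list is reported here, so these genes do not describe it as a whole. The part of these cells in the Pf4 values was not tested.

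Proteases that cut these ligands mostly did not pass. Of 6 tested of 8 listed, 1 was higher and 0 lower by edgeR, beside 10.2% higher and 7.20% lower over all tested genes. At an unadjusted p under 0.05, 2 were higher and 0 lower. DESeq2 called 0 and limma-voom 1 higher, and neither called any lower. The gene called by edgeR was Mmp2, a gelatinase, at 1.57, 1.75 and 1.56 CPM in CML against 0.358, 0.568 and 0.872 CPM in WT (a difference in log2 of 1.43, SE 0.39, edgeR adjusted p = 0.0228). It missed the threshold with DESeq2 (adjusted p = 0.0556) and in the fits that lacked WT replicate 1 (0.112), WT replicate 2 (0.0987), CML replicate 2 (0.0703) and CML replicate 3 (0.0638).

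Factors that control the decay of chemokine mRNAs gave 1 gene higher and 1 lower among 9 tested, near the 10.2% and 7.20% of all tested genes. Zc3h12a, the ribonuclease Regnase-1, was at 15.1, 17.7 and 21.8 CPM in CML against 8.01, 6.88 and 7.85 CPM in WT (a difference in log2 of 1.26, SE 0.18, edgeR adjusted p = 3.96e-04). Srsf1, a splicing factor gene, fell by 0.57 and missed the threshold in the fits that lacked WT replicate 2 (adjusted p = 0.0735) and CML replicate 3 (0.0598).

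Levels were then compared between the 7 members per kilobase of annotated exon (CPM per kb). Exon length was the union over all annotated transcripts of a gene. For Cxcl1, Cxcl2, Cxcl3 and Cxcl10 that union covered the whole gene, introns included. For Cxcl9, Cxcl12 and Cxcl16 it covered only part of the gene. The divisor is thus unlike between members, and the order and the shares of the sum depend on it. In WT, Cxcl10 stood at 11.2 ± 1.64 CPM per kb and its lowest library was above the highest of each other member. It was followed by Cxcl2 at 0.416 ± 0.0660 and Cxcl16 at 0.163 ± 0.0521, which did not overlap (SD, n = 3). Cxcl9, Cxcl3, Cxcl1 and Cxcl12 came next, at 0.0410 down to 0.00769 CPM per kb, and their order was within the spread of a few counts.

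In CML the order changed at the top. Cxcl10 stood at 1.65 ± 0.443 and Cxcl16 at 1.12 ± 0.889 CPM per kb, with overlapping libraries, from 1.2 to 2.08 and from 0.166 to 1.93. Cxcl2 followed at 0.289 ± 0.120 (SD, n = 3), and Cxcl3, Cxcl1, Cxcl12 and Cxcl9 lay between 0.104 and 0.0288. The summed level of the 7 was 2.37, 3.11 and 4.35 CPM per kb in CML and 10.2, 13.3 and 12.2 in WT. Cxcl10 made up 92.5% to 95.3% of that sum in the WT libraries, and 70.6%, 38.5% and 47.9% of it in CML replicates 1, 2 and 3. Cxcl16 made up 0.844% to 1.94% of it in WT and 7.02%, 40.3% and 44.3% in CML.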

How the data were processed

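Estimated counts, unscaled, are what the authors deposited, 1 column per library; 35.0% to 36.9% of a library's entries were not whole. The submitters' processing notes list STAR 2.7.3a, Partek 8.0 and mm10, with no role or order. No source used here gives the annotation, the strand setting or the treatment of shared reads. Counts were rounded, filtered with filterByExpr (minimum count 10) and tested across 16221 genes in edgeR 4.0.16 by quasi-likelihood (R 4.3.3; TMM scaling, robust dispersions, group as the only term, two-sided, Benjamini-Hochberg adjusted p under 0.05). SEs were derived from the fold change and F. CPM uses TMM-scaled sizes, and exon lengths and coordinates came from GENCODE M21 (GRCm38). The pipeline was tested on simulated data. DESeq2 1.42.0, limma-voom (limma 3.58.1), other scalings, other filters, a replicate block and leaving out each library were alternatives.

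Groups and replicate numbers came from the sample titles, and no pair of libraries differed by as little as sampling noise (smallest chi-square per degree of freedom 8.57). The members and all gene lists were chosen with earlier results of these data known. Genes named were the 7 members, every tested gene of the other-ligand and receptor lists, up to 3 called genes with the lowest adjusted p from each other pathway list, the 2 genes nearest in profile to each tested member, and the gate genes. Other genes named, among them single marker genes, Ackr3 and the neighbours of Cxcl10, were chosen after their values were seen. Lists are described by counts and medians, with no set test. The exact binomial intervals and the floors cover counting error only. The 95% intervals of log2 fold changes also take in the spread between libraries. No source mentions molecular identifiers. No row was found for Cxcl15, Ifng and Ifnb1, which were not analysed here. The replicate numbers of CML and WT are titles only and were not taken as pairs. A result on the megakaryocyte markers is not reported here.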

Additional observations from a re-analysis of the deposited data

How the results depend on the processing

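Cxcl10 was lower and Cxcl2 was not called in each fit that tested them; the Cxcl2 log2 fold change ran from -0.75 to -0.22 over the fits that left out 1 library. The filter at a mean of 50 counts did not test Cxcl2. The number of members higher in CML was 0 to 1 over the fits that left out 1 library, the 1 being Cxcl16 without CML replicate 1. Over all pathway and marker lists, 25 genes were higher and 12 lower, with 14 to 31 higher and 9 to 12 lower when 1 library was left out. Cxcr2 ran from -0.11 to 0.70, Cxcr6 from -0.63 to 0.0664 and Kit from -0.16 to 0.30 in those fits. Over all genes, the 1652 higher and 1168 lower became 2065 and 732 when scaled by library totals, which moved the higher share of calls from 58.6% to 73.8%. Genes lower numbered 675, 569, 688 and 455 without CML replicate 2, CML replicate 3, WT replicate 1 and WT replicate 2, and 2101 without WT replicate 3; genes higher numbered 1011 without WT replicate 2. The cause was not tested. Deviations of same-numbered libraries correlated at -0.02, -0.05 and 0.01, so no pairing by number was seen. With 3 libraries per group this cannot exclude a pairing. With a replicate block 1607 genes were higher and 1200 lower, the Cxcl10 value was -2.76 and the Cxcl2 value -0.56. Depth limits Cxcl1, Cxcl3, Cxcl9 and Cxcl12, which held at most 16 counts over a group; for Cxcl16 the spread among the CML libraries is the limit.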

Other observations

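The genes around Cxcl10 on chromosome 5 were examined after its value was seen. Within 200 kb the annotation holds 10 protein-coding genes or polymorphic pseudogenes besides it. Of the 6 tested, 2 were lower in CML by edgeR, beside 7.20% lower over all tested genes. These were Cxcl11 and Sdad1, a ribosome biogenesis gene 36.2 kb away. Sdad1 stood at 91.1 ± 4.51 CPM in CML against 128 ± 2.98 CPM in WT (SD, n = 3), a log2 fold change of -0.49 (SE 0.11, edgeR adjusted p = 0.00687). Nup54, a nuclear pore gene 66.7 kb away on the other side, had a log2 fold change of -0.08, and Naaa, a lipid amidase gene at 68.5 kb, 0.67, neither of which passed. Uso1 (-0.27) and Scarb2 (-0.25) did not pass either.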
